A study of Homo sapiens with 2 samples.

Results

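The genes described here encode the DNA replication machinery and the enzymes that supply its nucleotides, measured in SNU216, a human cell line established from gastric cancer. The list holds 51 genes, chosen by name from what is known of their products, with earlier results of these data already seen. All 51 were among the 20046 genes that the platform annotation names on the array. Total RNA of 2 cell lines derived from SNU216 was labelled with biotin and measured on Illumina BeadChips, with 1 array each: cells in which TEAD4 was knocked down (TEAD4 KD) and control cells carrying a non-silencing shRNA. TEAD4 is a DNA-binding partner of the cofactors YAP and TAZ. The labels used here do not name the hairpin sequence, the number of hairpins, the time after delivery or a further culture. Each group is 1 array, and the number of cultures or hairpins behind it is not known.

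Replication starts at origins bound by the origin recognition complex, onto which CDC6 and CDT1 load the MCM helicase during G1. CDC45 and the GINS complex switch the helicase on in S phase, and the polymerases then copy DNA while held by the PCNA clamp, which the RFC complex loads. Ribonucleotide reductase, thymidylate synthase and the salvage kinases provide the deoxynucleotides, and the CAF-1 and ASF1 chaperones place histones behind the fork. Many of these genes are transcribed in late G1 by E2F factors, which the retinoblastoma protein and its relatives hold in check, and their transcripts are commonly read as signs of proliferation.

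Sequence upstream of some of these genes is shown first, because E2F sites are the best known shared feature of the family. RefSeq promoters (GRCh38.p14, 250 bases before to 50 after each start) matched 46 of the 51 genes. An E2F site was searched as TTTCCCGC, TTTCGCGC, TTTGCCGC or TTTGGCGC on either strand. It was present in at least 1 promoter of 24 of the 46 genes (52.2%), against 1090 of 27305 genes of the table (3.99%). The matches were spread over the licensing and helicase genes (9 of 14 detected genes with a promoter), the polymerase and clamp genes (6 of 15), the nucleotide enzymes (3 of 6), the chromatin genes (1 of 5) and the E2F and RB factors (4 of 5). The TEAD core GGAATG was present for 7 of the 46 genes (15.2%), against 16.7% of all genes, and the CCAAT box for 27 (58.7%), against 39.7%. These motifs were searched on both strands and none contains another. A match is a string of letters in this window, not a measured binding site.

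Of the genes past 1.5-fold described further on, RRM2, E2F1 and E2F3 are shown with PCNA, the sliding clamp, each over the 250 bases before its start site and read along the gene. Capitals mark the searched motif, which is the E2F site for E2F1, E2F3 and PCNA and the CCAAT box for RRM2, whose promoters held no E2F match. The windows are chr2:10122489-10122738 on the plus strand, chr20:33686386-33686635 on the minus strand, chr6:20401629-20401878 on the plus strand and chr20:5126623-5126872 on the minus strand.
RRM2: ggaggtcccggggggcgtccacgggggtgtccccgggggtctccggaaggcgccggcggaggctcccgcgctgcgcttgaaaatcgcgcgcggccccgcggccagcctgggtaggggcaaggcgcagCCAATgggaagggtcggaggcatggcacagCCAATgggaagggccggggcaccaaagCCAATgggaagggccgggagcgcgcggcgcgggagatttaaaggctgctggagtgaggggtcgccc
E2F1: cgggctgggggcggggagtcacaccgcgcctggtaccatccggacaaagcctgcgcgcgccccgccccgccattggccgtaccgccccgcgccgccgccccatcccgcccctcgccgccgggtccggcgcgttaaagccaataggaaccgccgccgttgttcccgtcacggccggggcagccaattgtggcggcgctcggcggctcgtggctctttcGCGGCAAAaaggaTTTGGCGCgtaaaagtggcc
E2F3: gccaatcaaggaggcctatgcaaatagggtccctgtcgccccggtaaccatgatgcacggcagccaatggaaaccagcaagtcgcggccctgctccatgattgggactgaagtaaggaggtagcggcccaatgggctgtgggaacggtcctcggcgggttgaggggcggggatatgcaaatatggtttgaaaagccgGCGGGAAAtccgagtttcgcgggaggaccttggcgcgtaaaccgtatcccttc
PCNA: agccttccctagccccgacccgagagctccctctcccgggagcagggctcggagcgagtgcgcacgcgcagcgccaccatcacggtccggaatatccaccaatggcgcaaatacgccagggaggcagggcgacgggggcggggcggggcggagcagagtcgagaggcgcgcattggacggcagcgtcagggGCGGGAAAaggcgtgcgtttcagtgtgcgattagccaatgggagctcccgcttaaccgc
In the RRM2 window CCAAT occurs 3 times, beginning 123, 93 and 66 bases before the start. The E2F1 window holds 2 E2F matches, beginning 33 and 20 bases before the start, on opposite strands. E2F3 has 1 match beginning 53 bases before its start and PCNA 1 match beginning 59 bases before, both on the strand opposite to the gene. The 23 detected genes with an E2F match had a median log2 difference of 0.05 between the arrays (range -0.72 to 0.65), and the 22 without a match had a median of -0.07 (range -0.51 to 1.37).

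The 51 genes were measured by 76 probes. With detection taken as a detection p under 0.01, on both arrays 66 probes were detected and 10 on neither. The probe of highest mean signal stands for each gene, and by this rule 50 genes were detected on both arrays, while GINS1, a GINS subunit, was detected on neither. Over all 47323 probes, 39.4% were detected on the TEAD4 KD array and 40.0% on the control array. Values are given as normalized log2 signals, and differences as TEAD4 KD minus control on the log2 scale. There were no replicates, so no difference has a test or an error from cultures, and having only 2 arrays is what limits precision. The only available measure of error is the spread between the 2 brightest probes of a gene, an SD of 0.31 per probe on the log2 scale over 2497 genes, which holds no difference between cultures. For the 15 replication genes with 2 such probes this SD was larger, at 0.43. In bulk RNA, fewer cells in S phase and less RNA per cell cannot be told apart.

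The targeted gene followed its label: the brightest TEAD4 probe read 7.55 on the TEAD4 KD array and 10.11 on the control array, a difference of -2.56. The epithelial markers KRT8, KRT19 and EPCAM were bright on both arrays, with deposited signals of 26406, 26272 and 20272 in TEAD4 KD cells and 30684, 28231 and 23935 in control cells. Of the 6 epithelial markers detected, CDH1 was past 1.5-fold higher (0.66) and KRT7 past it lower (-0.73), and CLDN4 differed by 0.57. The keratin KRT18 was detected on neither array. None of the 4 endothelial markers was detected. Of 5 leukocyte markers on the array 2 were detected. LYZ was dim and differed by -0.15, and MS4A1 was detected on the TEAD4 KD array alone and was at least 1.04-fold higher. Of 7 fibroblast markers 5 were detected, of which 3 were past 1.5-fold lower, with a list median of -0.65. FBLN1 differed by -1.80, and COL1A1 and COL1A2 by -0.29 and 0.06. LUM and DCN were detected on the control array alone and were at least 2.41-fold and 1.21-fold lower. The count of 3 includes DCN, whose lower bound is under 1.5-fold. Whether these markers bear on the values given next was not tested.

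The replication genes as a whole were nearly level between the arrays. Their median difference was -0.02, with 24 genes above 0 and 26 below. It was -0.04 for the 11720 genes detected on at least 1 array, which are the detected genes compared below. Within 25% of equality (the larger signal at most 25% above the smaller) were 35 of the 50 (70%), against 61.0% of all detected genes, and the median size of the difference was 0.17, against 0.24. These genes are also bright, with a median signal of 11.44 against 9.42 for all detected genes, and 27 of the 50 lay in the brightest quartile.

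**Figure D1:**
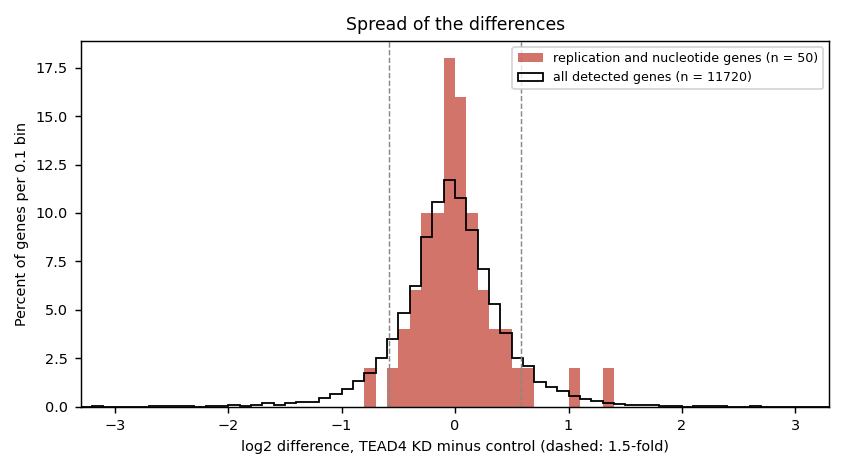
Histogram of log2 differences (TEAD4 KD minus control, horizontal axis) as percent of genes per bin, for the 50 detected replication and nucleotide genes (filled) and all 11720 detected genes (line). The filled bars cluster around 0, with 3 genes right of the upper 1.5-fold line and 1 left of the lower.

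Past 1.5-fold were 4 genes, 3 higher and 1 lower in TEAD4 KD cells. Of the 50 genes this is 3 higher against a background of 7.24% of all detected genes, and 1 lower against 9.2%. The higher ones were RRM2, RFC2 and E2F1 and the lower one was E2F3. In the brightest quartile 4.78% of all genes passed 1.5-fold in either direction and 0 of the 27 replication genes did. In the second-dimmest quartile 19.6% of all genes passed it, and RFC2 and RRM2 were the 2 that did so of 9 replication genes there. E2F3 was the 1 gene past it of 13 in the second-brightest quartile, where 11.9% of all genes passed. E2F1 was the 1 replication gene in the dimmest quartile, where 29.4% of all genes passed. RRM2 and RFC2 were also the 2 genes past 2-fold higher, against 1.81% of all detected genes, and 0 were 2-fold lower, against 2.34%. By more than 25%, 8 were higher, against 17.1% of all detected genes, and 7 lower, against 21.9%.

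**Figure D2:**
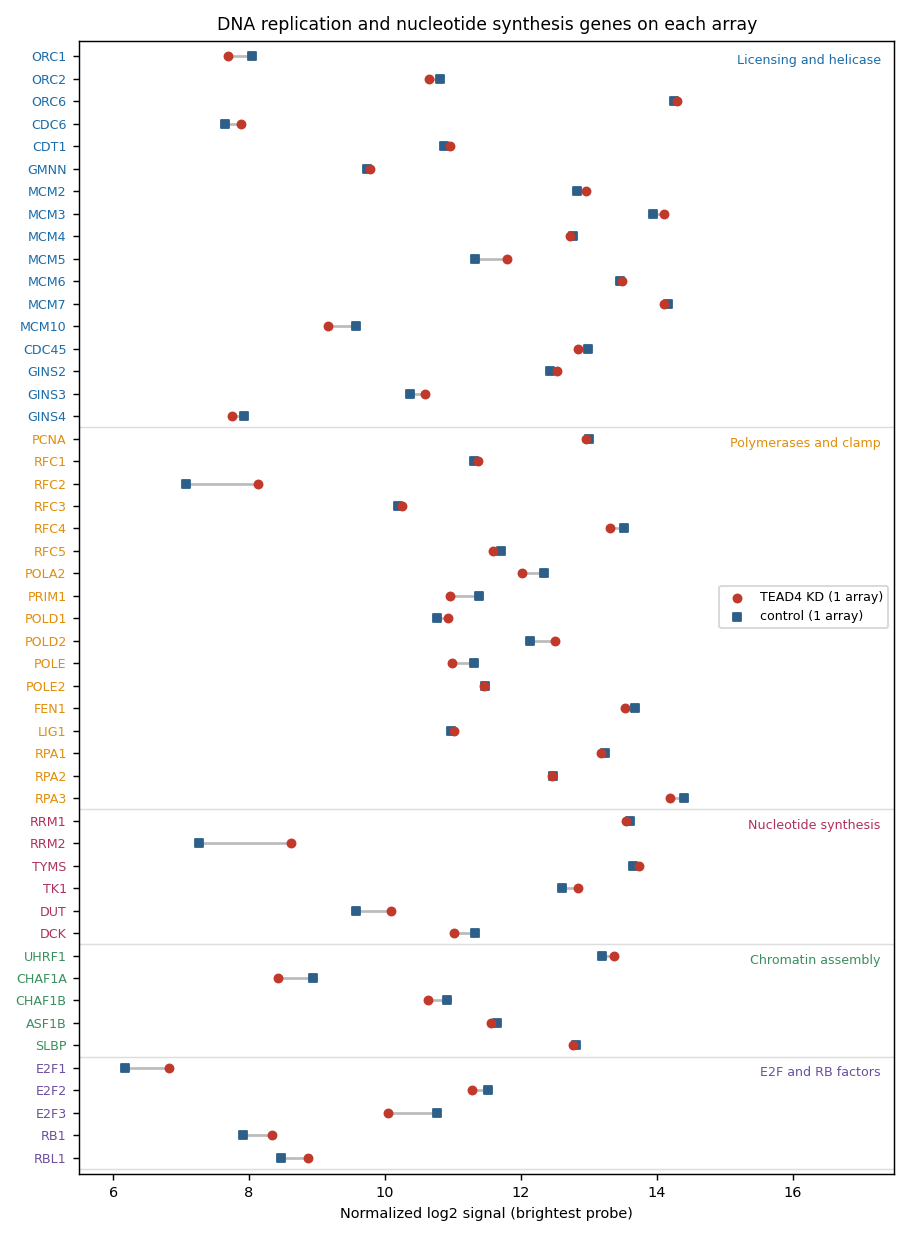
Normalized log2 signal of the brightest probe (horizontal axis) on the TEAD4 KD array (circles) and the control array (squares) for each of the 50 detected genes, ordered by role. The wide gaps are at RRM2, RFC2, E2F1 and E2F3, and most pairs of symbols overlap or lie close together.

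The licensing and helicase genes showed no member past 1.5-fold among 17 detected, with a median of 0.04. The MCM2 to MCM7 subunits, which form the helicase ring, were bright and close to equal. MCM6 read 13.49 on the TEAD4 KD array and 13.46 on the control array, and MCM7 read 14.11 and 14.17 in the same order. MCM2 differed by 0.14, MCM3 by 0.16 and MCM4 by -0.04 with their brightest probes. Dimmer probes of MCM3 and MCM4, described further on, differed by 0.81 and 0.95. MCM5 was the highest of the group, with 11.80 in TEAD4 KD cells against 11.33 in control cells, a difference of 0.47.

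Among the genes that bring the helicase to origins, ORC1 read 7.69 in TEAD4 KD cells and 8.04 in control cells, a difference of -0.35. ORC2 differed by -0.16 and ORC6 by 0.04. The remaining subunits ORC3, ORC4 and ORC5, from a neighbouring list of replication genes, differed by -0.47, 0.17 and -0.03. The loader CDC6 differed by 0.23, the loader CDT1 by 0.09 and geminin (GMNN), the inhibitor of CDT1, by 0.04. The origin recognition subunits therefore did not share a direction, and no loader differed by 25%. MCM10, which acts when the helicase is switched on, had the lowest difference of the 17 detected licensing and helicase genes of the list. It read 9.17 in TEAD4 KD cells and 9.58 in control cells (-0.41), although its dimmer probe differed by -0.01. CDC45 differed by -0.14, and the GINS subunits GINS2, GINS3 and GINS4 by 0.11, 0.22 and -0.18.

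Of the 17 polymerase and clamp genes, 6 were above 0 and 11 below, with a median of -0.04. The clamp itself, PCNA, read 12.96 on the TEAD4 KD array and 13.00 on the control array by its brightest probe. The lowest here were PRIM1 and POLA2, the listed subunits of polymerase alpha with primase, which lays down the primers. PRIM1 read 10.96 in TEAD4 KD cells and 11.38 in control cells (-0.43), and its other probe differed by -0.31. POLA2, the regulatory subunit of that enzyme, differed by -0.33. The other subunits of polymerase alpha with primase, POLA1 and PRIM2, from the neighbouring list, differed by -0.15 and 0.02. The catalytic subunit of polymerase epsilon, POLE, also differed by -0.33, and its partner POLE2 by -0.03. Polymerase delta, which copies the lagging strand, was split, with POLD1 at 0.16 and POLD2 at 0.37 and its smaller subunits POLD3 and POLD4, from the neighbouring list, at -0.23 and -0.18. POLD2 read 12.50 in TEAD4 KD cells and 12.14 in control cells, and its dimmer probe differed by 0.52. All of these are under 1.5-fold.

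RFC2, a subunit of the clamp loader, was 2.09-fold higher by the probe that represents it, with deposited signals of 257 in TEAD4 KD cells and 121 in control cells. In normalized log2 signal it read 8.14 and 7.07 in the same order, a difference of 1.07. A further RFC2 probe of almost the same mean signal (7.59 against 7.60) differed by only 0.16, with deposited signals of 182 in TEAD4 KD cells and 172 in control cells. The annotation places these probes under different transcript records, and the call of RFC2 rests on which probe is taken. The other loader subunits were level by their brightest probes: RFC1 differed by 0.06, RFC3 by 0.05, RFC4 by -0.21 and RFC5 by -0.11. Dimmer probes of RFC1, RFC3 and RFC4 differed by -0.20, 0.97 and -0.28. The RPA subunits, which coat single-stranded DNA, differed by -0.06 (RPA1), -0.02 (RPA2) and -0.20 (RPA3) with their brightest probes. The dimmer RPA1 probes differed by 0.19 and 0.13. FEN1, the nuclease that trims Okazaki fragments, differed by -0.16, and LIG1, the ligase that joins them, by 0.04.

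RRM2 had the largest difference of all 50 genes. It encodes the small subunit of ribonucleotide reductase, the S phase subunit of the enzyme that makes deoxynucleotides from ribonucleotides. Its only probe had deposited signals of 366 in TEAD4 KD cells and 139.8 in control cells, and normalized log2 signals of 8.62 and 7.26 in the same order, so that it was 2.58-fold higher (1.37). Ranked from the highest signed difference downwards, it was number 56 of the 11720 detected genes. The large subunit RRM1 was level, at 13.55 in TEAD4 KD cells and 13.61 in control cells (-0.05).

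The other enzymes of nucleotide supply differed by less than 1.5-fold. DUT, the dUTPase that keeps uracil out of DNA, read 10.09 in TEAD4 KD cells and 9.57 in control cells (0.52), and its other detected probe differed by 0.38. Thymidine kinase TK1 differed by 0.24 and thymidylate synthase TYMS by 0.08. DCK, the deoxycytidine kinase of the salvage route, was the lowest at -0.30. The median of the 6 genes was 0.16, with 4 above 0 and 2 below.

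Of the chromatin assembly genes 4 of 5 were below 0, with a median of -0.09 and none past 1.5-fold. Of the CAF-1 subunits, CHAF1A read 8.43 in TEAD4 KD cells and 8.93 in control cells (-0.51), and CHAF1B read 10.63 and 10.91 in the same order (-0.28), both under 1.5-fold, while the third subunit RBBP4, which also serves other complexes, differed by -0.03. The histone chaperone ASF1B differed by -0.09 and SLBP, which binds the stem-loop of replication-dependent histone mRNAs, by -0.05. A dimmer SLBP probe differed by -0.33. UHRF1, which brings the maintenance methyltransferase to newly copied DNA, was the highest at 0.17.

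The E2F and RB factors diverged. E2F1 was 1.57-fold higher, with deposited signals of 95.8 in TEAD4 KD cells and 57.4 in control cells and normalized log2 signals of 6.82 and 6.17 in the same order (0.65). E2F3 was 1.65-fold lower, with deposited signals of 1003 in TEAD4 KD cells and 1786 in control cells and log2 signals of 10.05 and 10.77 (-0.72). E2F2 differed by -0.24, so the 3 activating E2F genes did not share a direction. The restraining factors were split too, with RB1 at 0.43 and its relative RBL1 at 0.39, each under 1.5-fold, and the other relative RBL2, from a neighbouring list, at -0.64. E2F1 is dim and was under 1.5-fold with an offset of 50 (0.47) and in the authors' deposited normalized table (0.35), while E2F3 lay between -0.72 and -0.70 under every setting tried.

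**Figure D3:**
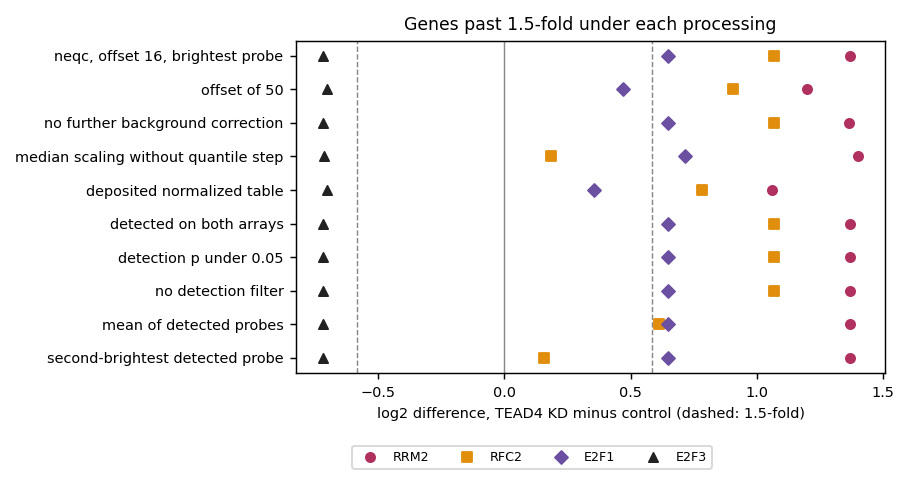
log2 difference, TEAD4 KD minus control (horizontal axis), of the 4 genes past 1.5-fold under each processing (rows); dashed lines mark 1.5-fold. RRM2 and E2F3 stay outside the lines in every row, whereas E2F1 and RFC2 each come inside in 2 rows.

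Further probes of the same genes gave a different picture for 6 of them. Of the 50 genes, 15 had at least 2 probes detected on both arrays. In FEN1, MCM3, MCM4, ORC6, PCNA and RFC3 the brightest probe was within 25% of equality while a dimmer probe was at least 1.5-fold higher in TEAD4 KD cells. In none of the 15 was a dimmer probe 1.5-fold lower beside such a level brightest probe. Over the 2497 genes with at least 2 such probes, 8.85% showed the first pattern and 2.76% the second, against 6 of 15 and 0 of 15 here. This grouping was chosen after the values had been seen and has no test. The first pattern also occurred in the neighbouring lists described below, in GART, DCTD, NME1, HAT1 and CDKN2A. The second occurred there in SKP2 and CDKN1B. These are named without a share, because the neighbouring genes with at least 2 such probes were not counted.

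The dimmer FEN1 probe had deposited signals of 1593 in TEAD4 KD cells and 724 in control cells (1.22), while its brighter probe had 11482 and 13520 in the same order (-0.16). The dimmer MCM4 probe had 743 in TEAD4 KD cells and 406 in control cells (0.95), and the brighter probe 6504 and 7167 (-0.04). The dimmer RFC3 probe had 306 in TEAD4 KD cells and 159.9 in control cells (0.97), against 0.05 for the brighter probe. These dimmer readings differ between the arrays by far more than the bright readings of the same genes. For PCNA the dimmer probe had 141 in TEAD4 KD cells and 70.6 in control cells (0.91). For MCM3 it had 3879 in TEAD4 KD cells and 2396 in control cells (0.81), and for ORC6 619 and 381 in the same order (0.78). In 5 of the 6 genes the annotation lists both probes under the same transcript record, with MCM4 the exception.

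**Figure D4:**
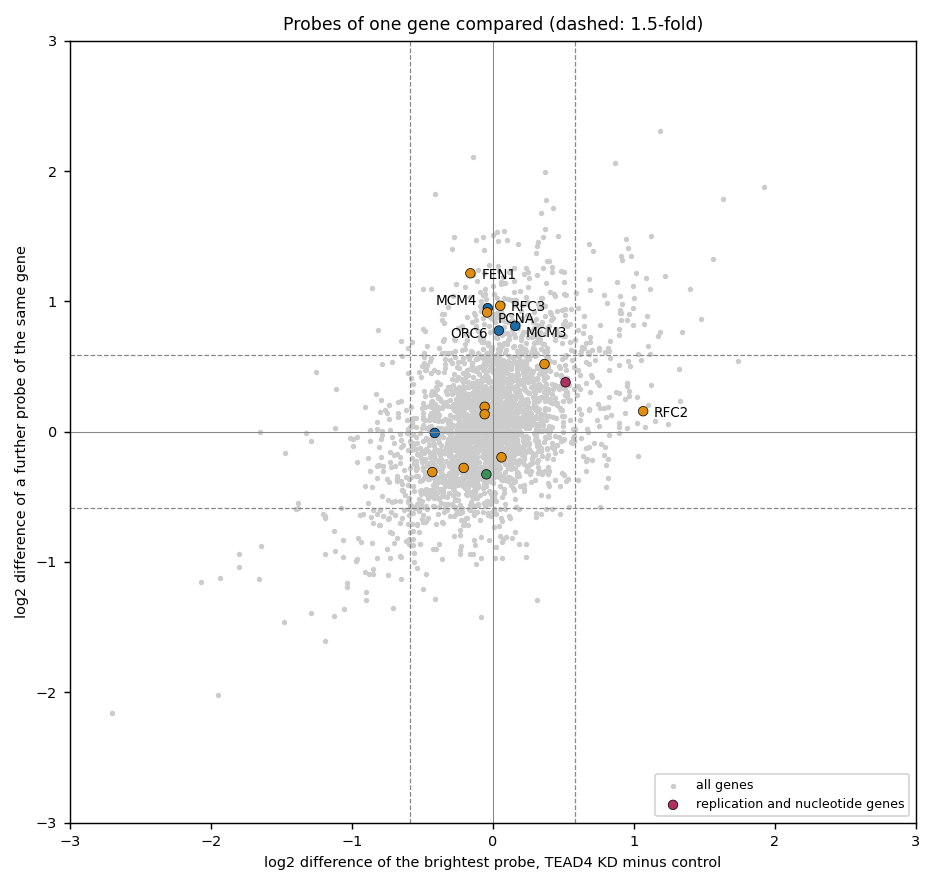
log2 difference (TEAD4 KD minus control) of each further detected probe (vertical axis) against that of the brightest probe of its gene (horizontal axis), for all genes (grey) and the replication and nucleotide genes (coloured by role). FEN1, MCM3, MCM4, ORC6, PCNA and RFC3 stand above the upper dashed 1.5-fold line near 0 on the horizontal axis.

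The same pattern was also counted among genes with a bright probe and a much dimmer further probe. Among all genes whose brightest probe had a mean log2 signal of at least 10 and that had a further probe at least 2 log2 units dimmer, 17.4% of 872 showed a level brightest probe with that dimmer probe 1.5-fold higher, and 3.33% with it lower. Of the 9 replication genes that meet these conditions, which were also set after the values had been seen, 6 showed the first. Over all genes 13.2% of further probes were 1.5-fold higher and 6.38% lower, and of the 16 further probes of replication genes 6 were higher and 0 lower. The part of signal level in the difference between probes was not tested. RRM2 and E2F1 had a single probe each, both in the dim range, so no brighter reading stands beside them.

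**Figure D5:**
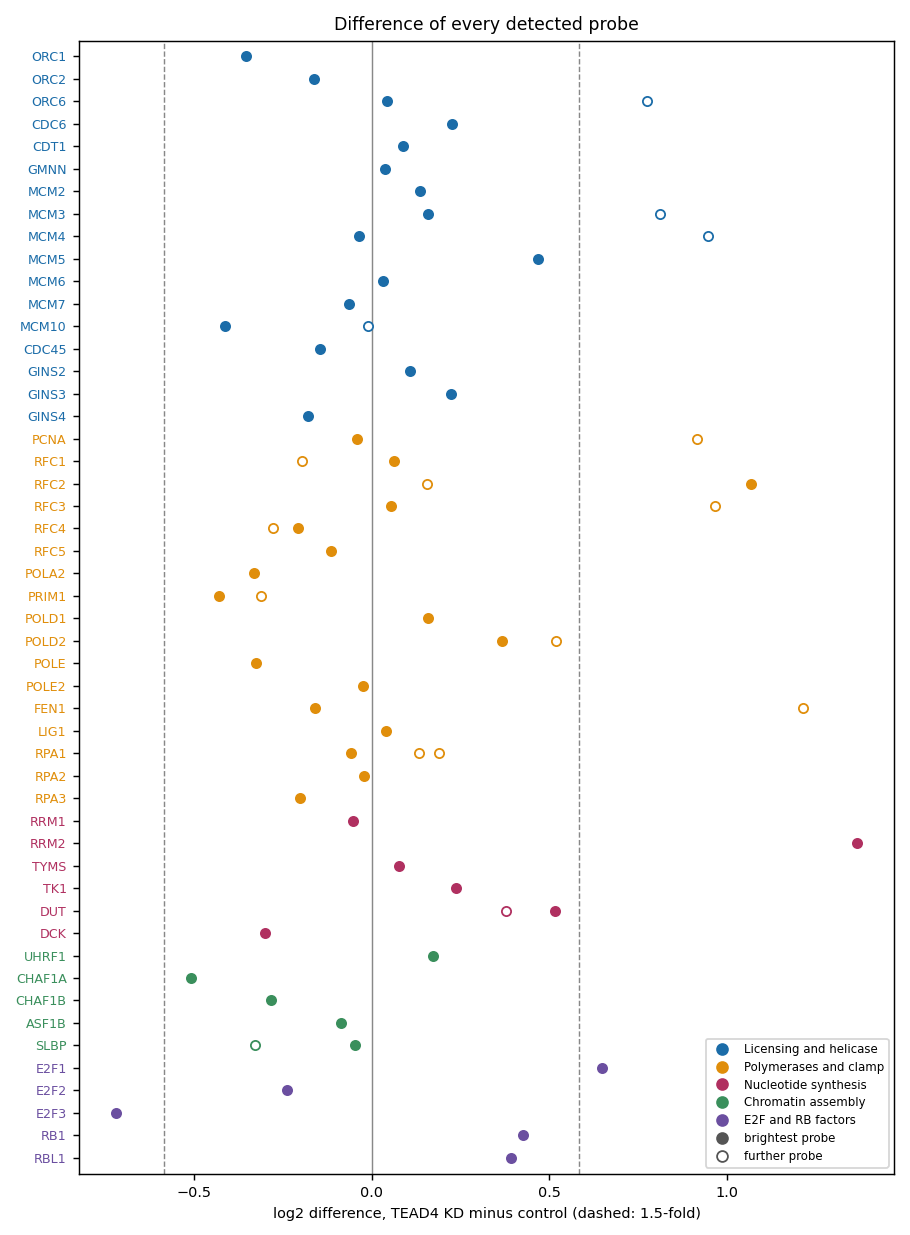
log2 difference, TEAD4 KD minus control (horizontal axis), of every probe detected on both arrays, by gene and role, with the brightest probe filled and further probes open. The open symbols right of the upper dashed 1.5-fold line are ORC6, MCM3, MCM4, PCNA, RFC3 and FEN1, whose filled symbols lie near 0.

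Neighbouring genes of the same pathways were listed separately. Of 27 detected further genes of origins and forks, 1 was past 1.5-fold, with a median of 0.02: DBF4, the activator of the CDC7 kinase that fires origins, was detected on the TEAD4 KD array alone and was at least 1.70-fold higher. CDC7 itself differed by 0.11. The remaining subunits of polymerase alpha and primase, POLA1 and PRIM2, differed by -0.15 and 0.02. Of 11 further chromatin assembly genes, 0 passed 1.5-fold, and the median was -0.08.

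Of 32 detected further nucleotide synthesis and salvage genes, 3 were past 1.5-fold higher and 1 lower, with a median of 0.09 and 22 above 0. NME2, a nucleoside diphosphate kinase, read 8.91 in TEAD4 KD cells and 7.59 in control cells (1.32), but its other detected probe differed by 0.24. PRPS1, which makes the ribose donor of nucleotides, differed by 0.74 and the mitochondrial thymidine kinase TK2 by 0.63, or 0.33 in the authors' deposited normalized table, where it was under 1.5-fold. ADSS1, an adenylosuccinate synthase, was the lower one (-0.77).

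Of 28 detected further G1/S and E2F genes, 1 was past 1.5-fold higher and 4 lower, with a median of -0.08. MYBL2, a transcription factor of proliferating cells, was the higher one, at 6.77 in TEAD4 KD cells and 5.93 in control cells (0.84). Lower were FBXW7 (-0.82), the ubiquitin ligase subunit that targets cyclin E, the repressor E2F7 (-0.69), the cyclin CCND1 (-0.64) and the RB relative RBL2 (-0.64). A further FBXW7 probe, detected on the TEAD4 KD array alone, was at least 1.22-fold higher. The share past 1.5-fold was 5 of 28 here and 4 of 50 among the replication genes, against 16.4% of all detected genes.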

How the data were processed

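The authors deposited 2 probe tables. The non-normalized table holds intensity values from which a background had already been subtracted (12895 probes below 0 on the TEAD4 KD array and 12861 on the control array) with a detection p-value per probe, per the file headers. The other deposited intensity table, on a linear scale, keeps the order of the signals within each array (Spearman correlation 1) after quantile normalization. Its values also lie higher, with a median of 118.7 on each array, against 17.6 (TEAD4 KD) and 18.3 (control) in the non-normalized values. The log2 differences of dim probes are smaller in it, with E2F1 at 0.35 against 0.65 in the values used here. The software behind it is not given in the sources used here. Signals were normalized with neqc of limma 3.58.1 in R 4.3.3 (offset 16), which was checked on simulated data. Every probe changed in the simulation had a control signal above those of the E2F1 probe and the dimmer PCNA probe. The check therefore does not cover probes as dim as these. The annotation gives 1 symbol for 30113 of 47323 probes, several for 8 and does not list 17202; all 51 genes matched RefSeq by Entrez identifier. No test was run, because each group has 1 array; a gene was counted when past 1.5-fold with its probe detected on the brighter array. A probe detected on 1 array only gives a lower bound, in which the dim array's value is its own signal or, if greater, the lowest signal detected there. Named were all genes of the list, and members of the neighbouring lists past 1.5-fold. ORC3, ORC4, ORC5, CDC7, POLA1, PRIM2, POLD3, POLD4 and RBBP4 were added after their values were seen, as partners of genes described. GART, DCTD, NME1, HAT1, CDKN2A, SKP2 and CDKN1B were added in the same way, for the differences between their probes. Genes and lists were chosen with earlier results of these data known. Alternatives changed the offset, background step, scaling, detection filter, probe choice and fold threshold.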

Additional observations from a re-analysis of the deposited data

How the results depend on the processing

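No replicate could be left out. No paired analysis was possible because there is a single array in each group. Differences in processing moved few values. With the dimmer, second-brightest detected probe standing for a gene, an alternative chosen after seeing the data, 8 replication genes were 1.5-fold higher instead of 3 (3 licensing and helicase genes and 3 polymerase and clamp genes), 2 further G1/S genes and 1 further chromatin gene were higher. The share of all detected genes that were higher was 9.51% with this probe, against 7.24%. Its medians were 0.040 for all replication genes, -0.28 for chromatin assembly and 0.048 for the further G1/S genes. Averaging detected probes also gave a median of 0.040 for all replication genes, so the sign of that median turned. The median of all detected genes was -0.020 with this averaging. Median scaling without the quantile step took the other RFC2 probe as the brightest (0.18), which left 0 higher polymerase and clamp genes, and gave 2 higher further G1/S genes and 1 higher further chromatin gene. An offset of 50 left 0 higher E2F and RB factors and, like the deposited table, 2 higher further nucleotide genes instead of 3. In the deposited normalized table there were 0 higher E2F and RB factors, 0 higher further fork genes and 0 higher further G1/S genes. Of all detected genes 3.81% were higher in that table and 4.69% with an offset of 50, against 7.24%. Requiring detection on both arrays left 0 higher further fork genes, since DBF4 was detected on 1, and without further background correction 2 further G1/S genes were higher. At 2-fold 2 replication genes were higher and 0 lower. With the threshold at 25%, 8 were higher and 7 lower. The 6 genes with a level brightest probe and a higher, dimmer further probe were the same under 4 normalizations. Mean log2 signals of these dimmer probes ran from 6.87 (PCNA) to 11.58 (MCM3), against a median of 9.42 for all detected genes. Only 5 of the 6 genes remained under the deposited table, where PCNA dropped out. The dim signals of E2F1, RFC2 and RRM2 limit how firmly their folds can be stated.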
